A study of Homo sapiens with 4 samples.

Results

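The SMADs and the feedback genes of TGF-beta signaling were followed in the triple-negative breast cancer (TNBC) line MDA-MB-468 and its drug-resistant subline. The set holds 10 genes of the 20809 targets measured, chosen by symbol: the receptor-regulated SMADs SMAD2 and SMAD3, their common partner SMAD4, the inhibitory SMADs SMAD6 and SMAD7, the nuclear co-repressors SKI, SKIL and TGIF1, and the membrane inhibitors PMEPA1 and BAMBI. MDA-MB-468/R, with 2 libraries, was selected with adriamycin (doxorubicin), taxotere (docetaxel) and cytoxan (cyclophosphamide) over 6 months. MDA-MB-468/WT, also with 2 libraries, carries the labels WT and no treatment, although a protocol label of the same samples names the drugs. The comparison asked which transcripts differ after long-term chemotherapy. The sources do not say whether the 2 libraries of a group came from separate cultures or whether the resistant subline is clonal. The p-values set the difference between the groups against the spread of these libraries within a group, which may be only technical.

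TGF-beta, activin and nodal ligands bind paired serine/threonine kinase receptors, which phosphorylate SMAD2 and SMAD3. These join SMAD4, move to the nucleus and regulate target genes together with other DNA-binding factors. The other members counter this signal, and some of them are themselves targets that close a negative loop. SMAD7 and SMAD6 block the receptors, and SKI, SKIL and TGIF1 recruit repressors to the SMAD complex. PMEPA1 keeps SMAD2 and SMAD3 from being activated, and BAMBI is a pseudoreceptor without kinase activity. MDA-MB-468 is a basal-type line known for loss of SMAD4 and RB1, and for amplified EGFR.

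Values are RPM, a share of the reads of a library scaled to 1000000, from a single short amplicon for each gene, so they are compared between libraries and not between genes. The libraries held 6832846 to 7981891 reads on target, a floor of 3 reads corresponded to 0.376 to 0.439 RPM, and reads fell on 69.0% to 71.2% of the targets. The 2 MDA-MB-468/R libraries differed from each other more than the 2 MDA-MB-468/WT libraries did, with an SD of the log2 difference over genes of 0.355 against 0.21. All 9 basal breast epithelial markers were measured in every library, with sums of 8320 and 8686 RPM in the resistant libraries and 10200 and 10224 RPM in the wild-type libraries, and KRT5, KRT6B and KRT17 were lower in the resistant subline. Of the markers of other cell types, PTPRC and CD3E (leukocytes), DCN and PDGFRB (fibroblasts) and VWF (endothelium) had 0 reads in all 4 libraries, but CD14, a leukocyte marker, was at 70.5 to 84.6 RPM and COL1A1, a fibroblast marker, at 10.5 to 17.5 RPM. The leukocyte markers summed to 72.1 and 70.8 RPM in MDA-MB-468/R against 83.9 and 84.8 RPM in MDA-MB-468/WT, and the fibroblast markers to 14.8 and 12.4 RPM against 17.3 and 18.3 RPM, with CD14 and COL1A1 the only ones tested and neither past the adjusted p. Of the 5 endothelial markers the 2 with enough reads to test, CDH5 and KDR, were lower in MDA-MB-468/R, where the list summed to 3.43 and 3.68 RPM against 9.19 and 9.75 RPM in MDA-MB-468/WT, and the part of these 3 lists in the results that follow was not tested.

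SMAD3 was the only member that differed between the groups at an adjusted p of at most 0.05 (limma, Benjamini-Hochberg over 12118 genes), and SMAD4 was at or near 0 reads in both. In bulk RNA, fewer cells that express a gene and less RNA per cell cannot be told apart. SMAD3 RNA in MDA-MB-468/R was at less than 50% of its level in MDA-MB-468/WT, whereas SMAD2, SMAD6, SMAD7, SKI, SKIL, TGIF1, PMEPA1 and BAMBI did not pass the test. Of the 10 members 9 passed the filter for low values (10 or more reads in 2 or more libraries) and were tested. Of these 1 was lower in MDA-MB-468/R and 0 were higher, while of all tested genes 10.6% were lower, 5.36% were higher and 16% differed in either direction, so the share of members called was near the background. At an unadjusted p under 0.05 the count was 3 of 9 (SMAD3, TGIF1 and PMEPA1), against 31.3% of all tested genes. The median log2 fold change of the 9 was -0.23, compared with -0.03 over all tested genes.

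**Figure D1:**
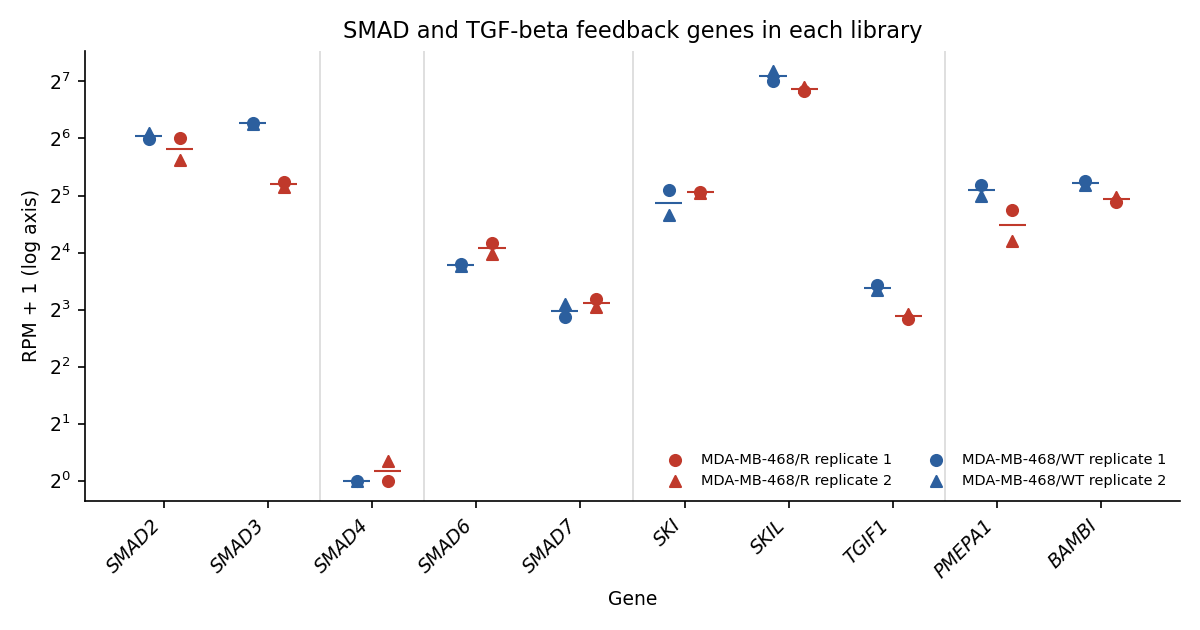
RPM plus 1 of each member in each library on a log2 axis, with MDA-MB-468/WT in blue, MDA-MB-468/R in red, circles for replicate 1, triangles for replicate 2 and a line at the mean log2 value of each group (n = 2). SMAD3 sits near 76 RPM in both MDA-MB-468/WT libraries and near 35.6 RPM in both MDA-MB-468/R libraries, and SMAD4 lies at the bottom of the axis in all 4.

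The receptor-regulated SMADs, which carry the signal from the receptors, differed in their values. SMAD3, the receptor-regulated SMAD that binds DNA directly, gave 36.8 and 34.5 RPM in the resistant libraries (257 and 253 reads) and 76.7 and 75.1 RPM in the wild-type libraries (524 and 600 reads). Both resistant libraries lay well below both wild-type libraries, and the replicates of each group were close together. The means were 35.6 ± 1.62 and 75.9 ± 1.13 RPM (SD, n = 2), a ratio of 2.13 in favor of MDA-MB-468/WT. The log2 fold change on the log2(RPM + 1) scale was -1.07 (SE 0.118, 95% interval -1.35 to -0.79, limma adjusted p = 0.00141). The fold stayed at -1.12 to -1.02 when each library was left out in turn, and the adjusted p was then 0.0232 without MDA-MB-468/R replicate 1, 0.0253 without MDA-MB-468/R replicate 2, 0.126 without MDA-MB-468/WT replicate 1 and 0.118 without MDA-MB-468/WT replicate 2. Without either wild-type library the spread comes from the MDA-MB-468/R pair alone, and the call is lost. SMAD3 also did not reach the fold of 2.5 by which the study defined differentially expressed genes, and neither did any other tested member. With this fold and an adjusted p of at most 0.05 together, 2.45% of the tested genes were lower and 0.809% were higher.

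SMAD2, the closest relative of SMAD3, gave 63.4 and 48.2 RPM in the resistant libraries and 62.6 and 67.1 RPM in the wild-type libraries. MDA-MB-468/R replicate 2 was the low library, and replicate 1 lay between the wild-type values, so the groups overlapped. The log2 fold change was -0.23 (95% interval -0.58 to 0.13, limma adjusted p = 0.363). Because SMAD2 and SMAD3 are read in the same library, their log2 difference hardly depends on the scaling to total reads. SMAD3 minus SMAD2 on the log2(RPM + 1) scale was -0.77 and -0.47 in MDA-MB-468/R, and 0.29 and 0.16 in MDA-MB-468/WT, which put SMAD3 lower relative to SMAD2 in both resistant libraries. The means differed by -0.85 (exact permutation test over the 4 libraries, 2-sided p = 0.333, the smallest that 2 against 2 allow), a comparison chosen after the values were seen.

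SMAD4, the partner that SMAD2 and SMAD3 share with the SMADs of the BMP arm, gave 0 and 2 reads in the resistant libraries and 0 reads in both wild-type libraries. The 2 reads equal 0.275 RPM and lie below the floor of 3 reads, so no fold was computed and the gene did not enter the test. A count of 0 allows up to 0.429 RPM in the MDA-MB-468/R library without reads and up to 0.439 and 0.376 RPM in the MDA-MB-468/WT libraries, and this covers counting error only. SMAD4 was not alone in this range, since 4682 of the 20809 targets had 0 reads in every library. RB1, the retinoblastoma cell cycle brake, likewise had 0 reads in all 4 libraries. SMAD4 and RB1, both known to be lost in this line, were thus at or near 0 in both groups. An amplicon reads only a piece of a gene, and RNA from other parts of SMAD4 was not analysed here.

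The targets beside SMAD4 on chromosome 18 were read in the same libraries. By the order of RefSeq genes (GRCh38.p14), the nearest target on one side was ELAC1, a tRNA-processing enzyme, with 12 and 14 reads in the resistant libraries and 11 and 18 reads in the wild-type libraries. Next to it ME2, the mitochondrial malic enzyme, gave 96 and 151 reads in the resistant libraries and 144 and 173 reads in the wild-type libraries. On the other side MEX3C, an RNA-binding ubiquitin ligase, gave 234 and 304 reads in the resistant libraries and 329 and 348 reads in the wild-type libraries. The targets flanking SMAD4 were thus read in both groups. Of the other 7 targets within 5 places, SKA1, MBD2 and POLI were well above the floor in every library (18 to 3089 reads), DCC had 0 reads in all, and MAPK4, MRO and STARD6 had 0 to 6 reads. None of those tested passed the adjusted p. SMAD2, SMAD7 and TGIF1 also lie on chromosome 18, and all 18 targets between SMAD2 and SMAD4 had a read in at least 1 library.

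**Figure D2:**
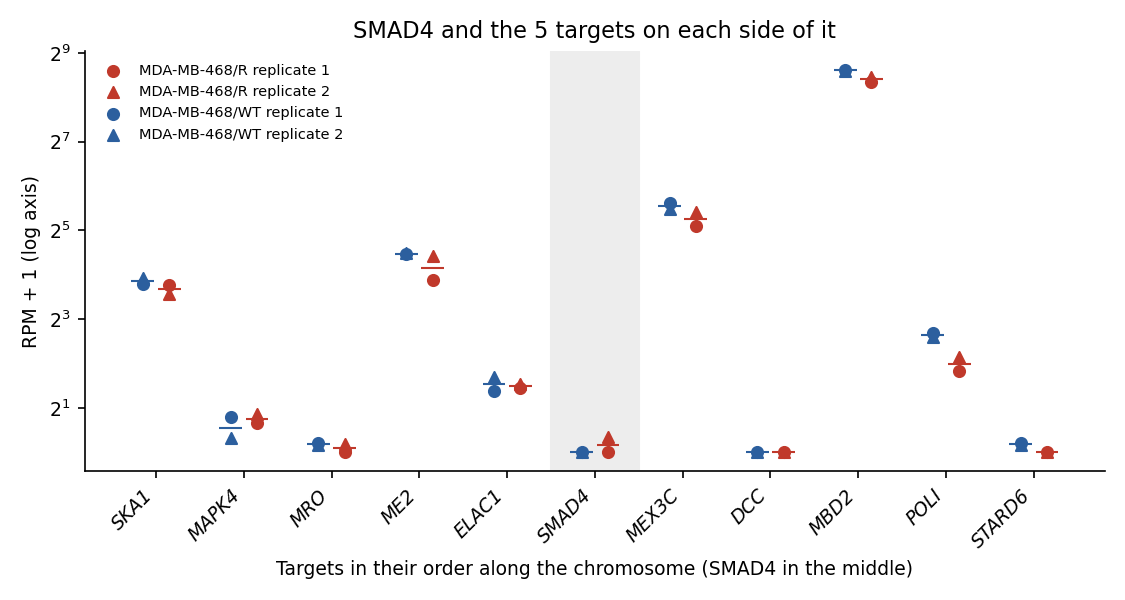
RPM plus 1 on a log2 axis for SMAD4 (shaded) and the 5 targets on each side of it, in their order along chromosome 18, with symbols as for the members. ELAC1, ME2 and MEX3C next to SMAD4 are read in all 4 libraries, and DCC lies at 0 RPM in all of them.

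The inhibitory SMADs did not pass the test. SMAD6, which acts mostly on BMP signaling, gave 17.0 and 14.8 RPM in the resistant libraries and 12.8 and 12.5 RPM in the wild-type libraries. Both resistant libraries were above both wild-type libraries, the only member with this order, which 26.1% of all tested genes showed. The log2 fold change was 0.30 (95% interval -0.08 to 0.68, limma adjusted p = 0.258). SMAD7, which recruits ubiquitin ligases to the TGF-beta receptors, gave 8.13 and 7.22 RPM in the resistant libraries and 6.31 and 7.51 RPM in the wild-type libraries, from 43 to 60 reads. The groups overlapped, and the log2 fold change was 0.14 (95% interval -0.31 to 0.58, limma adjusted p = 0.684).

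SMAD3 and SMAD4 are known to bind the CAGAC element and its palindrome GTCTAGAC, so the upstream sequences of 4 members are shown. These 4 differ in what they hold: SMAD3 holds neither, SMAD6 holds the palindrome, and SMAD7 and BAMBI hold CAGAC in duplicate. SMAD2, SMAD4 and PMEPA1, which are not printed, also hold neither. The 250 bases before the outermost RefSeq start (GRCh38.p14) are given 5′ to 3′ on the strand of the gene, with CAGAC (or GTCTG, the same element on the other strand) and GTCTAGAC in capitals, for SMAD3 (chr15:67065352-67065601, plus strand), SMAD6 (chr15:66701986-66702235, plus strand), SMAD7 (chr18:48950966-48951215, minus strand) and BAMBI (chr10:28677271-28677520, plus strand).
SMAD3: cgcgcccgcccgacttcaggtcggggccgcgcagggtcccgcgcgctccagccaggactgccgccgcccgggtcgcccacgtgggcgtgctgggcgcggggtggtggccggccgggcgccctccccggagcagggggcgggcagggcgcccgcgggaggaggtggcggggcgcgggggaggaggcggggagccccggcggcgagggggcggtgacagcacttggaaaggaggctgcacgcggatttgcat
SMAD6: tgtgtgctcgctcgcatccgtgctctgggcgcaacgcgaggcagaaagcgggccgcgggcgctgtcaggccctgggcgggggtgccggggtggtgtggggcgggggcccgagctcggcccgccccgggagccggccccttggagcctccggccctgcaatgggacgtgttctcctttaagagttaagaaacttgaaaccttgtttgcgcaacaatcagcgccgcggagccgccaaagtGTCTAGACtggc
SMAD7: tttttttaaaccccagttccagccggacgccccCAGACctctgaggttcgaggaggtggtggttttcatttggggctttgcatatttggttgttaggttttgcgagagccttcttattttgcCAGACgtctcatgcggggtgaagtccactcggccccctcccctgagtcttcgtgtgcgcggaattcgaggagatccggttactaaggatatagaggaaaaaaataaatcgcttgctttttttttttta
BAMBI: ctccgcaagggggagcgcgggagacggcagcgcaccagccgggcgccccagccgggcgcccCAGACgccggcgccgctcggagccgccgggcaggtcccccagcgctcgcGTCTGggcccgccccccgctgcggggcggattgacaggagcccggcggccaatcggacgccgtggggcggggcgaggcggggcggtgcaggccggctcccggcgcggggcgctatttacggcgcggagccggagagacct

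Of the 10 members 9 matched an upstream window, all but SKI. On either strand CAGAC occurred in 4 of these windows: 2 copies each in SMAD7 (starting 217 and 128 bases before the gene start), TGIF1 (224 and 40 bases) and BAMBI (189 and 140 bases), and 1 copy in SKIL (107 bases). Among all 24882 windows of the same length, 38.1% held at least 1 copy and 8.78% held at least 2. GTCTAGAC, which shares no copy with CAGAC, occurred in the window of SMAD6 only, while 46 of all windows (0.185%) held it. SMAD7, BAMBI and TGIF1, each with 2 copies, had log2 fold changes of 0.14, -0.29 and -0.51, and none of them passed the adjusted p. A match describes letters in a window and not a bound site, and sequence outside these windows was not searched.

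The nuclear co-repressors were not called either. SKI, the cellular homolog of a retroviral oncogene, gave 32.4 and 32.1 RPM in the resistant libraries and 33.1 and 24.3 RPM in the wild-type libraries. MDA-MB-468/WT replicate 2 was the low library, and the groups overlapped. The log2 fold change was 0.18 (95% interval -0.22 to 0.58, limma adjusted p = 0.524), and without that library its sign turned to give -0.04. SKIL, also called SnoN, a relative of SKI that is degraded and then induced after TGF-beta, gave 114 and 118 RPM in the resistant libraries and 127 and 144 RPM in the wild-type libraries. Both resistant libraries were below both wild-type libraries by a small margin, with a log2 fold change of -0.22 (95% interval -0.48 to 0.04, limma adjusted p = 0.227). TGIF1, a homeodomain repressor that competes with coactivators for SMAD2, gave 6.16 and 6.57 RPM in the resistant libraries and 9.78 and 9.13 RPM in the wild-type libraries. The groups did not overlap, and the log2 fold change was -0.51 (95% interval -0.92 to -0.09, unadjusted p = 0.0245, limma adjusted p = 0.102) from 43 to 73 reads.

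The membrane inhibitors were below the wild-type values in both resistant libraries without passing the test. PMEPA1, a transmembrane protein induced by TGF-beta, gave 25.9 and 17.5 RPM in the resistant libraries and 35.5 and 30.8 RPM in the wild-type libraries. MDA-MB-468/R replicate 2 was the lowest library, and the groups did not overlap. The log2 fold change was -0.61 (95% interval -1.08 to -0.14, limma adjusted p = 0.0835). It was -0.88 with an adjusted p of 0.0481 when MDA-MB-468/R replicate 1 was left out, and -0.71 to -0.34 with adjusted p from 0.161 to 0.569 when another library was left out. BAMBI gave 28.7 and 30.3 RPM in the resistant libraries and 37.3 and 35.3 RPM in the wild-type libraries. Its replicates were close in both groups, with a log2 fold change of -0.29 (95% interval -0.60 to 0.02, limma adjusted p = 0.180). In all, 5 of the 9 tested members (SMAD3, SKIL, TGIF1, PMEPA1 and BAMBI) had both MDA-MB-468/R libraries below both MDA-MB-468/WT libraries, against 32.2% of all tested genes, and with SMAD6 the groups of 6 members did not overlap, against 58.3%. On the log2(RPM + 1) scale a change of 1 unit lies outside the 95% interval of every uncalled tested member except PMEPA1, whose interval reaches -1.08. At low RPM a 2-fold change in RPM is less than 1 unit on this scale. The interval of TGIF1, which reaches -0.92, therefore does not exclude a 2-fold decrease in RPM.

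**Figure D3:**
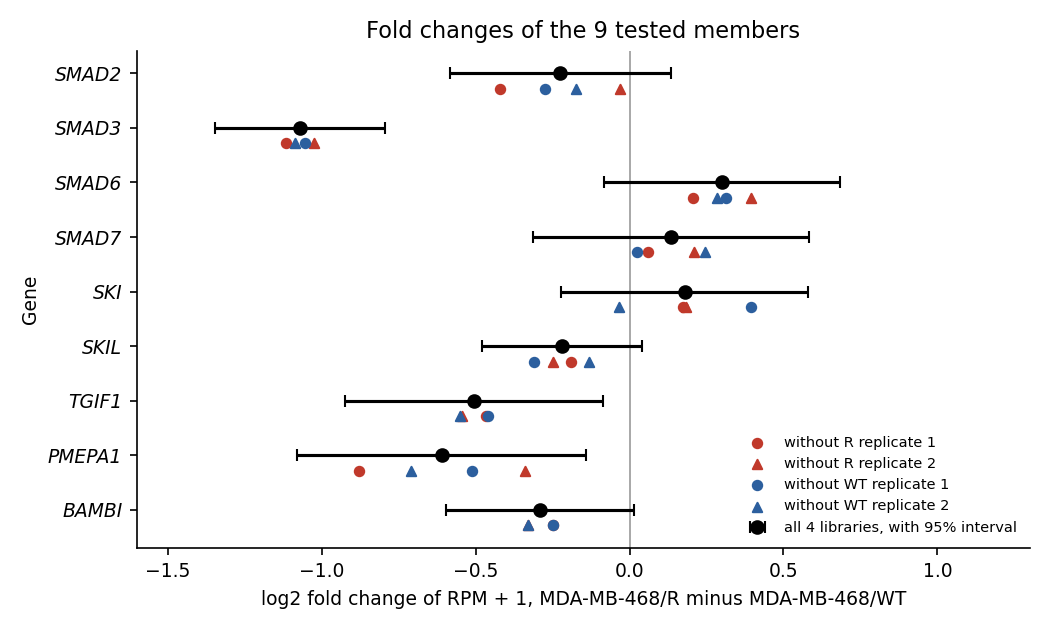
Log2 fold change of RPM plus 1 (MDA-MB-468/R minus MDA-MB-468/WT) for the 9 members that could be tested, with black points and bars for the value from all 4 libraries and its 95% interval, and colored symbols below for the value with 1 library left out. SMAD3 stays between -1.12 and -1.02 whichever library is left out, whereas PMEPA1 ranges from -0.88 to -0.34 and SKI crosses 0.

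Around the members, 108 other genes of the pathway were among the targets and 87 were tested. Of these 26 were lower and 5 higher in MDA-MB-468/R, with a median log2 fold change of -0.20. Of all tested genes 10.6% were lower, 5.36% were higher and 16% differed in either direction. The pathway lists were chosen with earlier results of these data known, and some of their genes had been seen to differ. Their counts, here and below, therefore describe the lists and test nothing. The other SMADs belong to the BMP arm: SMAD1 gave a log2 fold change of 0.07 (limma adjusted p = 0.774), SMAD5 gave -0.40 (limma adjusted p = 0.0566), and SMAD9 had 0 reads in all 4 libraries. SMAD3 was thus the only one of the 8 SMAD genes that passed the test, and SMAD4 and SMAD9 could not be tested. Whether SMAD3 differed more than its relatives was not tested beyond its difference from SMAD2.

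Among genes known to be induced by TGF-beta, 11 of 22 tested were lower and 0 were higher, with a median log2 fold change of -0.48. Of all tested genes 10.6% were lower and 5.36% were higher. The list was chosen with earlier results of these data known, so its count is a description and not a test. TGFBI, an extracellular matrix protein, was at 3.65 and 3.02 in MDA-MB-468/R and 7.35 and 7.15 in MDA-MB-468/WT on the log2(RPM + 1) scale, a fold change of -3.92 (limma adjusted p = 8.41e-05). FN1 (fibronectin) and NEDD9 (a docking protein of focal adhesions) were also lower, with log2 fold changes of -2.27 and -1.74. CTGF (0.25), CYR61 (0.07) and JUNB (-0.04), also known as rapid TGF-beta targets, did not pass the test. The 7 tested inhibitors among the members (SMAD6, SMAD7, SKI, SKIL, TGIF1, PMEPA1 and BAMBI), not all of them known TGF-beta targets, had values from -0.61 to 0.30. The difference between this range and that of the targets was not tested. None of the 4 tested BMP targets passed.

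Upstream of the SMADs, 5 of 7 tested ligands were lower and 1 higher, led by the activin subunit INHBA with a log2 fold change of -4.55 and TGFB2 with -1.33. Among 7 tested receptors the type I receptor TGFBR1 (-0.90) and the co-receptor ENG (-1.14) were lower and the co-receptor TGFBR3 (1.29) was higher. Among ligand traps 2 of 6 were lower and 1 was higher, including LTBP3 (-0.70) and LTBP1 (0.55), which tether latent TGF-beta to the matrix. Of 6 tested genes of the BMP arm only the type I receptor BMPR1B (1.54) was higher, and 0 were lower. This share of 16.7% was near the 16% of all tested genes that differed in either direction.

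Among partners that handle the SMAD proteins, 2 of 12 tested ubiquitin ligases and deubiquitinases were lower, USP9X (-0.88), which removes ubiquitin from SMAD4, and NEDD4L (-0.73), which marks activated SMAD2 and SMAD3 for degradation. SMURF1 and SMURF2, the ligases that SMAD7 brings to the receptors, did not pass the test (log2 fold changes of -0.32 and -0.18). Of 10 anchors, adaptors and phosphatases 2 were lower, PPP1R15A (-0.77), a phosphatase subunit that works with SMAD7 at the receptor, and FKBP1A (-0.49), which holds the type I receptor inactive. Of 13 nuclear cofactors ATF3 (-1.93), a stress-induced repressor that pairs with SMAD3, and KLF10 (-0.54) were lower, and FOXO1 (0.82) was higher. The shares called in these lists were 16.7%, 20% and 23.1% in turn. They were not far above the 16% of all tested genes that differed in either direction. TGIF2, the relative of TGIF1, gave -0.47 (limma adjusted p = 0.161). Across these lists the calls of INHBA and TGFBI were the only 2 of the 31 that held with each library left out, and only 2 of the 26 lower calls were left without either wild-type library.

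**Figure D4:**
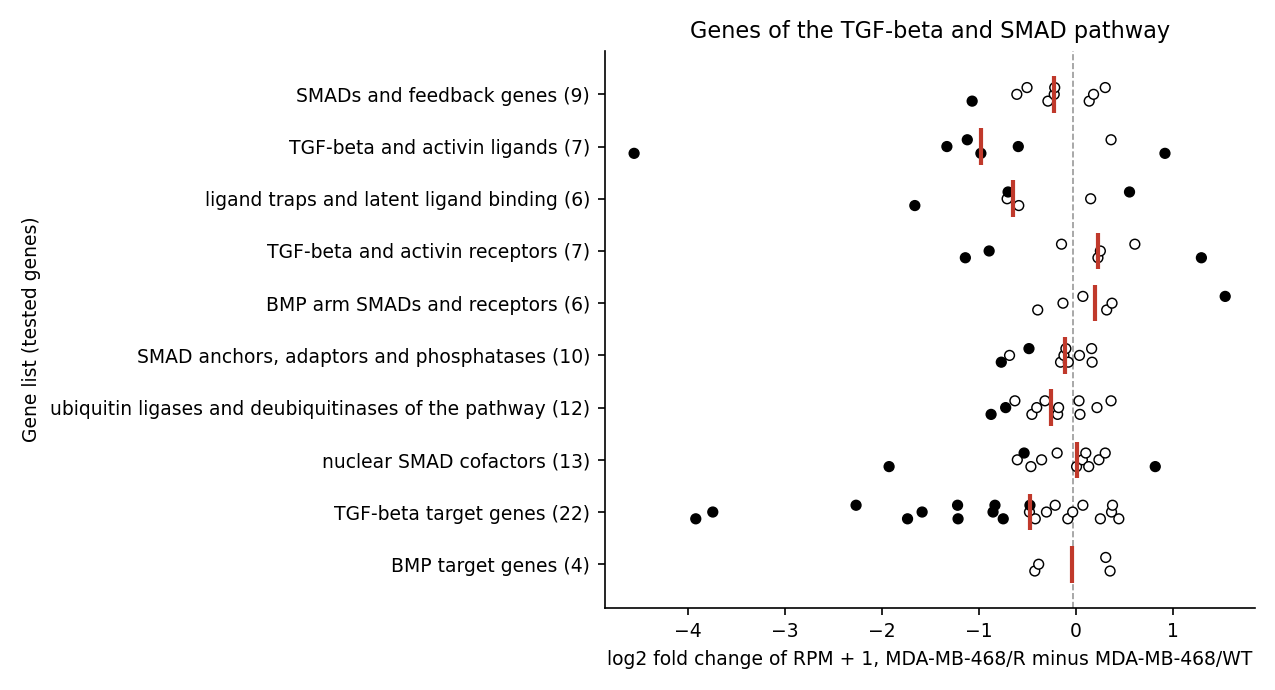
Log2 fold change of RPM plus 1 (MDA-MB-468/R minus MDA-MB-468/WT) of the tested genes of each list, 1 point a gene, filled where the adjusted p was at most 0.05, with a red line at the median of the list and a dashed line at the median of all tested genes (-0.03). The SMADs and feedback genes lie between -1.07 and 0.30 with 1 filled point, and the TGF-beta targets reach -3.92 with 11 filled points.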

How the data were processed

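Libraries were amplified with the Ion AmpliSeq kit from total RNA, 2 of the resistant and 2 of the wild-type line. Samples of HCC1395 and MDA-MB-231 were not analysed here. Alignment with the Torrent Mapping Alignment Program and testing with DEGSeq are described in the methods of the paper, whereas Bowtie2, bedtools and edgeR are named in the processing notes of the submitters. The genome build is not given in the sources used here. The authors deposited log2 values rounded to 2 decimals, and 2 to the power of these minus 1 summed to 999854 to 1000057 per library, so they are log2 of RPM plus 1. Reads were recovered from the RPM of 1 read, and every value at or under 20 reads came out whole within 0.1.

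The deposited values of 12118 genes with at least 10 reads in at least 2 libraries were tested in R 4.3.3 with limma 3.58.1 (empirical Bayes with a mean trend, no covariates, 2 residual and 5.4 prior degrees of freedom, Benjamini-Hochberg adjustment). On data simulated with this design the test called 20 of 100 genes changed 2-fold, 76 of 100 changed 4-fold and 2 of 11918 unchanged genes. In the simulation all changed genes lay above 5 RPM, and the spread of each gene was drawn at random from those of all genes without the highest. Far fewer genes were changed there than the 16% called in the real data, which makes the adjustment stricter. The simulated shares may therefore not hold for these data. The 10 members and the gene lists were chosen with earlier results of these data known, and some pathway genes had been seen to differ. Named were all members, up to 4 called genes per pathway list with the largest change and at least 5 RPM in the higher group, genes known to be lost in this line and 5 targets on each side of SMAD4. SMURF1, SMURF2, TGIF2, CTGF, CYR61, JUNB, SMAD1, SMAD5, SMAD9 and FST were added with their values known. Alternative fits used RLE scaling, other pseudocounts, no filter, limma-voom on recovered reads, a random sampling model, fold thresholds, a replicate block and leaving out each library. Chromosomes, neighbors and promoter windows came from RefSeq (GRCh38.p14) by symbol. Some named items are not reported here.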

Additional observations from a re-analysis of the deposited data

How the results depend on the processing

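RLE scaling, pseudocounts of 0.25 and 4 RPM, no filter on low values and limma-voom on the recovered reads left every count of calls within 1.5 times the reported one. These settings moved no tested member across the threshold or 0. Over all 11 settings, 89 of 99 alternative values of the tested members kept their direction and side of the threshold. Those that newly passed came from the random sampling model or the fit without MDA-MB-468/R replicate 1. Those that no longer passed (SMAD3) or changed sign (SKI) came from fits without a MDA-MB-468/WT library. With 1 library left out, members lower in MDA-MB-468/R numbered 0 to 2 (1 with all), pathway genes higher 0 to 4 (5) and lower 2 to 28 (26), all genes higher 9 to 751 (649) and lower 48 to 1305 (1290). The low ends came without a MDA-MB-468/WT library, where the lone wild-type library is assumed to vary like the MDA-MB-468/R pair. The random sampling model, which ignores spread between replicates beyond counting, called 1 member higher and 6 lower, 18 pathway genes higher and 47 lower, and 2902 genes higher and 3566 lower. With a fold of at least 2.5 added to the adjusted p, 0 members, 1 and 9 pathway genes, and 98 and 297 of all genes were called higher and lower, and with an unadjusted p the counts were 0, 1 and 9, and 98 and 299. The log2 fold change of SKI ranged from -0.035 to 0.395 with 1 library left out, and its sign turned without MDA-MB-468/WT replicate 2. With the replicate number as a block, 3 pathway genes were higher, SMAD3 kept its call (adjusted p = 0.00351), and no other count moved by over 1.5 times. The deviations of same-numbered libraries had a correlation of 0.00868 and no label links them, so the samples share only a number. A change in SMAD4 below the floor of 0.376 to 0.439 RPM was not detectable at this depth.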

Other observations

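The 18 targets between SMAD2 and SMAD4 on chromosome 18 held 1 gene that was higher and 2 that were lower among 15 tested, all named here after their values were seen. ZBTB7C, a zinc finger protein gene that RefSeq places next to SMAD2, gave 19.5 and 15.6 RPM in the resistant libraries and 2.78 and 2.25 RPM in the wild-type libraries. Both resistant libraries were far above both wild-type libraries, with a log2 fold change of 2.40 (limma adjusted p = 0.000493, and 0.0615 at the highest with 1 library left out). LIPG, the endothelial lipase, had a log2 fold change of -0.91 (limma adjusted p = 0.00896), and MYO5B, a motor of recycling endosomes, had -0.56 (limma adjusted p = 0.0375). The call of each was lost in at least 1 of the fits with a library left out. Over the 171 tested genes of chromosome 18, 21 were lower (12.3%) and 5 were higher (2.92%), against 10.6% and 5.36% of all tested genes, so the lower share was near the background. Their median log2 fold change was -0.12, compared with -0.03 over all tested genes.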
